A study of Homo sapiens with 8 samples.

Results

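HCT116 cells carrying the DPF2 R350H change were compared with WT HCT116 cells after both had been kept for 24 h in 0.5 µM doxorubicin. The comparison took the 2 libraries labelled R350H with doxorubicin and the 2 labelled WT with doxorubicin, 4 of the 8 libraries of the series, and covered every gene that passed a filter on low counts. The other 4 libraries, 2 of untreated WT cells and 2 of untreated R350H cells, entered the same fit and gave the genotype difference without the drug. HCT116 is an established line from a human colon carcinoma, and the R350H change was introduced with CRISPR/Cas9. Nothing in the labels says whether the edited cells were 1 clone, or whether both libraries of a group had cultures of their own. A p-value here thus speaks only of the spread among these samples, possibly technical, and other differences between the lines cannot be told apart from the edit.

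DPF2 is a subunit of BAF, a complex that uses ATP to slide and evict nucleosomes at enhancers and promoters, and its PHD fingers bind acylated histone H3. According to the study's design text, BAF that holds the R350H subunit is impaired in binding nucleosomes with H3K56ac, an acetylated form of H3. The comparison asks what this changes in gene expression when DNA is damaged. Doxorubicin traps topoisomerase II on DNA and leaves strand breaks. In cells with working p53, such breaks raise p53 target genes and stop the cell cycle.

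The 4 treated libraries held 29841908 and 31306947 counts in WT and 31350982 and 31125683 in R350H cells, and 17868 genes were tested. In the treated libraries 13.5 to 14.6% of counts fell on mitochondrial genes. Counts were less even between the WT libraries than between the R350H libraries, with a chi-square per gene of 7.59 against 1.96. Of 29 epithelial genes, 20 passed the filter on low counts, and they are described further on. Among them EPCAM was at 188.1 CPM (counts per 1000000 of a library size scaled by TMM) or more in every treated library, and lower in R350H than in WT cells (-0.32 on the log2 scale), and KRT8 at 2061 CPM or more. Of 14 blood, 11 fibroblast, 8 endothelial and 10 neural marker genes, 3, 3, 2 and 5 passed the filter on low counts. Of these 13, the neural cell adhesion gene NCAM1 (1.70 ± 0.07 on the log2 scale, fitted difference R350H over WT ± SE) and the tubulin gene TUBB3 (1.35 ± 0.14) were higher in treated R350H cells, CORO1A (-0.82), ACTA2 (-0.39) and ENO2 (-0.18) were lower and the other 8 did not pass the test. The ENO2 call was lost without WT replicate 1 (-0.20) and without R350H replicate 1 (-0.18), under upper-quartile scaling (-0.14), without a filter (-0.18) and with a mean of at least 5 CPM (-0.15).

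DPF2 itself (chromosome 11, 65333852 to 65354262, plus strand, hg38) was counted at 106 and 108 CPM in treated WT and 54.3 and 53.5 CPM in treated R350H cells. Both R350H libraries lay below both WT libraries, a 1.99-fold difference (log2 difference -0.99 ± 0.07, edgeR adjusted p = 1.53e-12), against -0.73 in untreated cells. Gene counts carry no information on the edited codon itself.

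With doxorubicin, 3421 genes were higher in R350H than in WT cells (19.1% of the genes tested) and 3751 were lower (21.0%), 40.1% in all, by edgeR's quasi-likelihood test at an adjusted p under 0.05. Most differences were small. Of the higher genes, 2012 differed by less than 1.5-fold, 705 by 1.5 to 2-fold, 558 by 2 to 4-fold and 146 by more, so that 3.94% of all genes were at least 2-fold higher. Of the lower genes the same classes held 2284, 760, 492 and 215. Without R350H replicate 1 the higher genes numbered 1987 and without R350H replicate 2, 2133, in fits that assume the lone library to vary like the other groups. The median over all genes was 0.02. At 12565 genes (70.3%) the treated libraries of the genotypes did not overlap. In untreated cells 3084 genes were higher (17.3%) and 3486 lower (19.5%) in R350H cells, 36.8% in all. Of the genes higher with doxorubicin, 49.6% were also higher untreated, which is 55.0% of those. Of the genes lower with doxorubicin, 56.4% were also lower untreated, which is 60.7% of those. These comparisons share no library. The genotype difference itself shifted upward with doxorubicin, relative to untreated cells, at 1155 genes (6.46%) and downward at 1462 (8.18%), 14.6% in all, by the interaction term of the same fit. Without the 2 untreated libraries counted with another strand setting, the interaction called 720 genes higher.

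Of the gene lists used here, that of the integrated stress response and the response to unfolded protein had the lowest median. In this response, kinases that sense amino acid shortage, unfolded protein or viral RNA phosphorylate the initiation factor eIF2, which slows general translation and lets the transcription factor ATF4 be made. ATF4 then drives genes for amino acid uptake and synthesis, tRNA charging and, when stress persists, cell death. Of 30 stress genes tested, 24 were lower and 4 higher in treated R350H cells, with a median of -1.36 against 0.02 over all genes. Untreated, the same 30 genes had 9 higher and 7 lower with a median of 0.02, and the interaction was lower at 24 and higher at 1, SDF2L1 (0.63 ± 0.16). Of the 30, 19 were at least 2-fold lower, where 3.96% of all genes were. The shares over all genes were 21.0% lower and 19.1% higher, with the interaction lower at 8.18% and higher at 6.46%. The 30 genes together took 6603 and 6339 CPM in treated WT and 2961 and 3034 CPM in treated R350H cells. Their sums were higher untreated in both genotypes, at 10118.5 and 10698.4 CPM in WT and 10855.6 and 11065.6 CPM in R350H cells. In bulk libraries, fewer cells in a state and less RNA per cell cannot be told apart.

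ATF4 (chromosome 22, 39519695 to 39522685, plus strand) was counted at 633 and 601 CPM in treated WT and 208 and 215 CPM in treated R350H cells. Its level in untreated cells was 742 and 816 CPM in WT and 651 and 659 CPM in R350H. The treated R350H libraries were the lowest of all 8, and the treated difference was 2.92-fold (-1.54 ± 0.07, edgeR adjusted p = 3.18e-16). DDIT3, which encodes the pro-death factor CHOP, was at 84.8 and 84.9 CPM in treated WT and 13.8 and 14.7 CPM in treated R350H cells, 5.96-fold lower (-2.58 ± 0.08, edgeR adjusted p = 1.48e-19). Untreated R350H cells had held more of it than untreated WT cells (202 and 191 against 112 and 125 CPM), so the genotype order of DDIT3 was opposite with and without the drug. CHAC1, an enzyme that degrades glutathione, stood at 66.6 and 68.1 CPM in treated WT and 5.46 and 6.69 CPM in treated R350H cells, an 11.1-fold difference (-3.47 ± 0.11, edgeR adjusted p = 2.86e-18). This was the largest difference on the stress list. TRIB3, a pseudokinase that feeds back on ATF4, was at 126 and 121 against 25.01 and 26.2 CPM (-2.27 ± 0.08). ATF3, a repressor and activator of stress genes, was at 86.98 and 81.7 against 19.9 and 23.7 CPM (-1.95 ± 0.08). STC2, a secreted glycoprotein, was at 175 and 173 against 34.7 and 38.9 CPM (-2.24 ± 0.07). For these 3 genes too the treated groups did not overlap, as at 70.3% of all genes tested. DDIT4, an inhibitor of mTORC1, differed by -1.87 ± 0.07, PPP1R15A, the phosphatase subunit that restores translation, by -1.41 ± 0.07, and the dimer partners CEBPG and CEBPB by -1.31 ± 0.07 and -1.27 ± 0.08.

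The 4 stress genes that were higher in treated R350H cells were CRELD2 (0.60 ± 0.09), SDF2L1 (0.52 ± 0.12), PDIA4 (0.28 ± 0.06) and MANF (0.25 ± 0.10). Here and below, genes named because 5 or fewer of a list stood on their side were chosen after their values were seen. All encode proteins of the endoplasmic reticulum that act in folding or are secreted under folding stress. CRELD2 was at 21.7 and 23.2 CPM in treated WT and 33.7 and 34.6 CPM in treated R350H cells, with no overlap. The call of these genes was less stable than that of the lower genes, since 1 was higher without R350H replicate 2 and 2 without WT replicate 2. Without R350H replicate 2 the calls of SDF2L1 (0.31), PDIA4 (0.20) and MANF (0.16) were lost, and without WT replicate 2 those of PDIA4 (0.17) and MANF (0.08). MANF was also lost without R350H replicate 1 (0.24), with RLE size factors (0.22), with TMM without mitochondrially encoded genes (0.22) and with DESeq2 (0.22). The lower genes numbered 23 to 26 when any of the 4 treated libraries was left out.

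**Figure D1:**
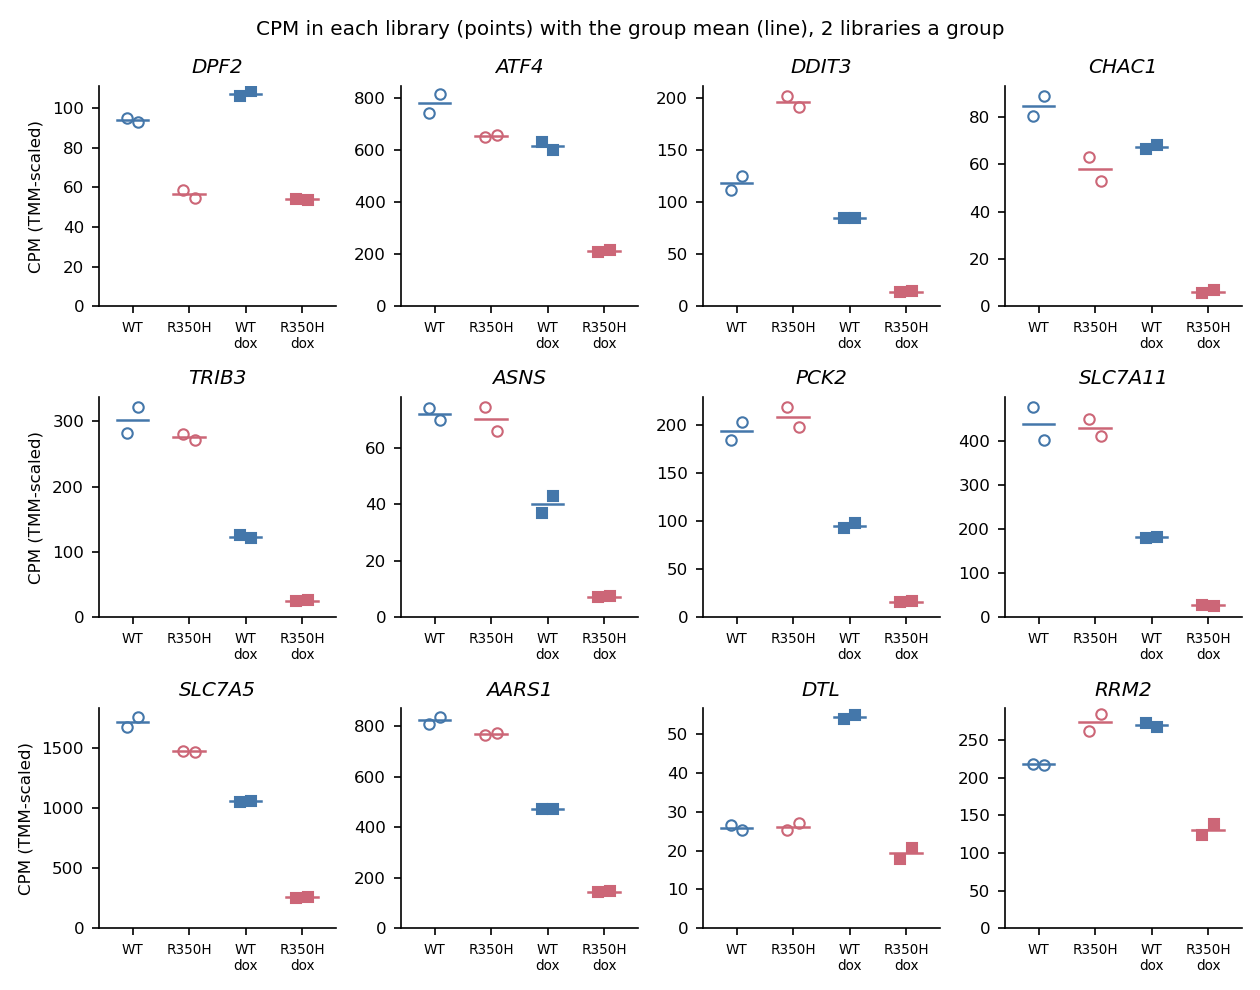
CPM of 12 genes (vertical axis, counts per 1000000 of the scaled library size) in each of the 8 libraries, with the group mean as a line; open circles are untreated and filled squares treated libraries, WT in blue and R350H in red. For every gene shown the treated R350H libraries lie below the treated WT libraries, whereas without doxorubicin only DPF2, ATF4, CHAC1, SLC7A5, TRIB3 and AARS1 have both R350H libraries below both WT libraries.

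Genes that supply amino acids were lower together, where 21.0% of all genes were lower and 19.1% higher. Of 24 tested, 21 were lower and 1, SHMT1, was higher (0.37 ± 0.08, 0.27 and not called without R350H replicate 1), with a median of -1.07 with doxorubicin and -0.05 without it. Among transporters, SLC7A11, which imports cystine, was at 179.8 and 182 CPM in treated WT and 28.6 and 25.5 CPM in treated R350H cells, 6.70-fold lower (-2.74 ± 0.09). Untreated cells of the genotypes overlapped, at 476 and 401 CPM in WT and 448 and 409.6 CPM in R350H. SLC7A5, the importer of large neutral amino acids, was at 1049 and 1062 against 253 and 263 CPM (-2.03 ± 0.07), and its partner chain SLC3A2 at 342 and 342 against 97.4 and 102 CPM (-1.78 ± 0.07). The carriers SLC1A4 (-2.15 ± 0.12), SLC1A5 (-1.49 ± 0.07), SLC7A1 (-1.45 ± 0.07) and SLC6A9 (-1.42 ± 0.13) were lower as well. Among enzymes, PCK2, which makes phosphoenolpyruvate in mitochondria, was at 93.5 and 97.8 CPM in treated WT and 15.9 and 16.98 CPM in treated R350H cells (5.82-fold, -2.54 ± 0.08). ASNS, asparagine synthetase, was at 36.9 and 43.04 against 7.02 and 7.59 CPM (5.47-fold, -2.45 ± 0.10), and its untreated libraries overlapped between the genotypes. PHGDH and PSAT1, which open serine synthesis, differed by -1.44 ± 0.07 and -1.66 ± 0.07, and MTHFD2, a mitochondrial folate enzyme, by -1.09 ± 0.07. SLC7A11, SLC7A5, SLC3A2, ASNS, PHGDH, PSAT1 and MTHFD2 are also on the stress list. The 24 genes together took 6092 and 5850 CPM in treated WT and 2826 and 2822 CPM in treated R350H cells. Their sums were higher untreated in both genotypes, at 8283 and 8362 CPM in WT and 8598 and 8291 CPM in R350H cells.

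The cytosolic aminoacyl-tRNA synthetases, which load amino acids onto tRNAs, had 15 lower and 0 higher of 20, with a median of -0.57 against -0.25 untreated. The shares over all genes were 21.0% lower and 19.1% higher. AARS1, the alanyl enzyme, was at 472 and 472 CPM in treated WT and 145 and 146 CPM in treated R350H cells, 3.25-fold lower (-1.70 ± 0.07, edgeR adjusted p = 1.68e-17). The glycyl, tyrosyl and cysteinyl enzymes GARS1 (-1.34 ± 0.07), YARS1 (-1.33 ± 0.06) and CARS1 (-1.25 ± 0.06) followed. For all 4 enzymes the treated groups did not overlap, as at 70.3% of all genes tested. Untreated, 13 of the 20 were already lower in R350H cells, and the interaction was lower at 10 and higher at 1, FARSA (0.33 ± 0.09). It was lower at 8.18% and higher at 6.46% of all genes. Without WT replicate 1, 1 synthetase was called higher with doxorubicin.

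ATF4 pairs with C/EBP proteins on a composite element, and these letters were looked for in promoters because so many genes that ATF4 is known to drive were lower. In the RefSeq windows of 300 bases (250 before to 50 after the start, GRCh38.p14), the letters TGATGNAA on either strand stood in 202 of 11857 windows of tested genes (1.70%). They stood in 5 of 27 stress genes with a window (18.5%), 6 of 18 amino acid genes (33.3%) and 6 of 16 synthetases (37.5%). Counting each gene once, 15 genes of these lists held the letters, of which 13 were lower, 0 higher and 2 not called. With or without the letters, 24 of 30 stress genes, 21 of 24 amino acid genes and 15 of 20 synthetases were lower. Many genes of these lists are known ATF4 targets, so a high share of the letters was likely beforehand. A link between the letters and the falls was not tested. Over all 202 genes that held them, 30.2% were lower and 17.8% higher, against 23.4% and 21.0% of genes whose window lacked them. A match describes the letters only, and no match says nothing about the factor outside this window. For each gene only the first window listed was searched, and it need not hold the start that these cells use. The 250 bases before the start are printed for the 4 genes among these with a match before the start that differed most, 5′ to 3′ on the gene's strand, with the match in capitals (in CHAC1 and AARS1 it lies on the other strand and is read backwards as its complement). The match begins 209 bases before the start in CHAC1 (chr15:40953221-40953470, plus strand), 68 in ASNS (chr7:97872409-97872658, minus strand), 191 in ATF3 (chr1:212565157-212565406, plus strand) and 187 in AARS1 (chr16:70289507-70289756, minus strand).
CHAC1: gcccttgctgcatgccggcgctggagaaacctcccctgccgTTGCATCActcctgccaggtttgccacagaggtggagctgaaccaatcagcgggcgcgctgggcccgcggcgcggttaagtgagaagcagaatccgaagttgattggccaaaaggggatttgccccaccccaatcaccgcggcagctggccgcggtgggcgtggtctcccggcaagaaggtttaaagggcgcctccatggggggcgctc
ASNS: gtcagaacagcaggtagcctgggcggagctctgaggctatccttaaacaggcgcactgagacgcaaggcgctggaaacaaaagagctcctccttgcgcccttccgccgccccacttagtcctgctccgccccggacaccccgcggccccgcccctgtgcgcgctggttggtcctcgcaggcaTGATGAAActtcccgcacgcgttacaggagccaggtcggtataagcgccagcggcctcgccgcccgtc
ATF3: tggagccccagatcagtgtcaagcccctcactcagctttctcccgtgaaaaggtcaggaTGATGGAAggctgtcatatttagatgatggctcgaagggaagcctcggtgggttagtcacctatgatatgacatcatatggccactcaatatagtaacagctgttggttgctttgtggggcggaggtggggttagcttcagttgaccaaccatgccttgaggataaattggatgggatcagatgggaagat
AARS1: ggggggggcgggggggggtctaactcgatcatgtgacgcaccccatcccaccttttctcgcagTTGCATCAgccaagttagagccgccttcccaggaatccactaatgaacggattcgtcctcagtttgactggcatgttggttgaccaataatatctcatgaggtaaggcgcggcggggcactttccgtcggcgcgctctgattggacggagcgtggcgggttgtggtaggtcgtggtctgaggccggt

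Genes of the G1/S transition and DNA replication formed the next block. These genes are driven by E2F factors when cells enter S phase. Of 46 tested, 42 were lower in treated R350H cells and 0 higher, with a median of -0.64. The shares over all genes were 21.0% lower and 19.1% higher. Untreated, 18 of the 46 were lower and 6 higher (median -0.16), and the interaction was lower at 27 and higher at 0. It was lower at 8.18% and higher at 6.46% of all genes. DTL, the adaptor of the ubiquitin ligase that destroys CDT1 in S phase, was at 53.9 and 54.8 CPM in treated WT and 17.8 and 20.7 CPM in treated R350H cells (2.82-fold, -1.497 ± 0.08, edgeR adjusted p = 4.90e-14). Untreated cells of both genotypes overlapped, at 26.6 and 25.1 CPM in WT and 25.2 and 27.00 CPM in R350H, so the treated WT libraries stood above the other 6. CCNE2, cyclin E2, was at 12.4 and 12.04 against 2.85 and 3.25 CPM (-2.001 ± 0.14). CDC6, which licenses origins, was at 90.98 and 89.4 against 40.2 and 42.3 CPM (-1.13 ± 0.07), and RRM2, which ribonucleotide reductase needs to make DNA precursors, at 273 and 267 against 123 and 139 CPM (-1.04 ± 0.07). E2F1 (-1.04 ± 0.10), an activator of the programme, and E2F8 (-1.44 ± 0.10), a repressor of it, were both lower. The 4 members without a call were FEN1 (-0.15), SLBP (-0.12), GINS1 (-0.09) and PCNA (0.08), which were named after their values were seen. Without WT replicate 2, FEN1 (-0.22) and SLBP (-0.24) were called lower. PCNA, the sliding clamp, is also a p53 target.

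The letters TTTCCCGC, a core that E2F factors bind, stood on either strand in 302 of 11857 windows (2.55%) and in 11 of 39 G1/S genes with a window (28.2%), of which 10 were lower, 0 higher and 1 not called. With or without the letters, 42 of the 46 G1/S genes were lower, and a link between the letters and the falls was not tested. Over all 302 genes, 25.5% were lower and 15.9% higher, against 23.4% and 21.1% of genes whose window lacked the letters, and the letters stood in 1.13% of windows of genes at least 2-fold lower, under the 2.55% of all. The windows of CDT1, an origin licensing factor (chr16:88803539-88803788, plus strand, match 35 bases before the start), and UHRF1, which carries DNA methylation through replication (chr19:4909251-4909500, plus strand, match 14 bases before), are printed in the same way. They were chosen after their values were seen, as the 2 that differed most among the 11 (CDT1 -1.12 ± 0.08, UHRF1 -1.04 ± 0.07), and their capitals read GCGGGAAA because the match lies on the other strand.
CDT1: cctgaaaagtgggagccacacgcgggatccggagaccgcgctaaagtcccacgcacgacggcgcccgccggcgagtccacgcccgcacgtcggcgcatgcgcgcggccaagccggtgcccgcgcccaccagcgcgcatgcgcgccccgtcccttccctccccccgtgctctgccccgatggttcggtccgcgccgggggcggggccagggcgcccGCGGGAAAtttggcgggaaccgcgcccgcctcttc
UHRF1: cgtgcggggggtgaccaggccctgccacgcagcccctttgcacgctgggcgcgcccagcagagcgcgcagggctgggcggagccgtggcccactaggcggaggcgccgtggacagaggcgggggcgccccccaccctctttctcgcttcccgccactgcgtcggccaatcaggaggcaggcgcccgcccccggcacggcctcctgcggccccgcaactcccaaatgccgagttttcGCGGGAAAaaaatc

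Genes of homologous recombination and Fanconi repair, which mend breaks and crosslinks with an intact copy, had 25 lower and 1 higher of 32 (median -0.51, untreated -0.17). BRCA1, a scaffold of recombination, was at 49.3 and 52.1 CPM in treated WT and 26.5 and 27.98 CPM in treated R350H cells (-0.90 ± 0.07), with no overlap, where untreated R350H cells had held slightly more (78.8 and 77.2 against 70.7 and 66.5 CPM). RAD54L, a motor of strand exchange (-1.004 ± 0.10), EXO1, which resects ends (-0.88 ± 0.09), FANCI (-0.83 ± 0.06) and FANCD2 (-0.72 ± 0.07) were lower, and RAD50, the ATPase of the end-binding MRN complex, was the member called higher (0.45 ± 0.10), a call that was lost without R350H replicate 1 (0.34). Genes of break checkpoints and end joining had 12 lower and 5 higher of 30, where 21.0% and 19.1% of all genes were. Among them the kinase gene CHEK1 was lower (-1.31 ± 0.09) by about as much as untreated (-1.15), and the 5 higher were TP53BP1, which favours end joining (0.57 ± 0.07), the kinases ATR (0.49 ± 0.08) and ATM (0.37 ± 0.07), the ligase LIG4 (0.33 ± 0.08) and the phosphatase CDC25B (0.33 ± 0.07). The call of LIG4 was lost without R350H replicate 2 (0.25).

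Genes of mitosis were called in both directions. Of 40, 16 were higher and 9 lower, where 19.1% and 21.0% of all genes were, with a median of 0.03, which had the opposite sign without WT replicate 2. PLK1, a kinase of mitotic entry, was at 17.3 and 17.4 CPM in treated WT and 32.1 and 33.4 CPM in treated R350H cells (0.92 ± 0.08), both far under the untreated levels of 116 and 123 CPM in WT and 142 and 126 CPM in R350H. KIF20A (0.88 ± 0.08), CENPE (0.76 ± 0.09), both motor proteins, and CCNB1, cyclin B1 (0.71 ± 0.07), were also higher. AURKB, a kinase of chromosome segregation (-0.73 ± 0.09), and the kinesin gene KIF2C (-0.58 ± 0.07), named after their values were seen, were lower. Of 18 histone genes, 12 were higher and 2 lower (median 0.86, untreated 0.58). H2BC5 was at 8.06 and 9.15 CPM in treated WT and 20.5 and 19.6 CPM in treated R350H cells (1.22 ± 0.11), and H2AC11 at 3.47 and 2.76 against 8.64 and 8.64 CPM (1.48 ± 0.15). The variants H2AX (-0.33 ± 0.08) and H2AZ1 (-0.26 ± 0.07) were lower. Most histone mRNAs made in S phase carry no poly(A), on which the kit relies, and near-identical copies can share reads, so these values are uncertain.

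Among p53 targets lower members outnumbered higher ones with doxorubicin, the reverse of untreated cells. Of 48, 9 were higher and 16 lower, where 19.1% and 21.0% of all genes were (median -0.06), and 3 were at least 2-fold lower and 0 at least 2-fold higher. Of the same genes 31 had been higher and 2 lower in untreated cells (median 0.32). The interaction was lower at 29 and higher at 0, where it was lower at 8.18% and higher at 6.46% of all genes. The count of 9 fell to 2 without R350H replicate 2, to 5 without R350H replicate 1 and to 4 without WT replicate 2. CDKN1A, whose product p21 holds back cell cycle kinases, was at 2048 and 1958 CPM in treated WT and 1863 and 1917 CPM in treated R350H cells, a difference of -0.08 ± 0.07 that did not pass the test (edgeR adjusted p = 0.38). Untreated R350H cells had held more of it, at 962 and 1068 against 522 and 568 CPM. SESN2 (-1.17 ± 0.07), which restrains mTORC1, and GADD45A (-0.89 ± 0.07), a growth arrest gene, were lower with doxorubicin and higher without it (0.25 and 0.52). PLK2, a polo-like kinase, was at 132 and 124 CPM in treated WT and 73.1 and 76.8 CPM in treated R350H cells (-0.77 ± 0.07), against 15.9 and 14.2 CPM in untreated WT and 34.7 and 34.1 CPM in untreated R350H cells. PMAIP1, the death factor NOXA, was lower (-0.87 ± 0.06). In the BCL2 family, which sets the threshold of apoptosis, 2 of 17 were higher and 4 lower (7 lower and 1 higher without WT replicate 2), where 19.1% of all genes were higher and 21.0% lower. BCL2L11, a member that encodes the death factor BIM, was at 32.1 and 33.6 against 85.8 and 81.8 CPM (2.55-fold higher, 1.35 ± 0.07). BAD, another death factor, was the other gene called higher (0.40 ± 0.10, but 0.25 and not called without WT replicate 2), and BIK (-1.33 ± 0.12), HRK (-0.84 ± 0.13) and BCL2L1, which protects cells (-0.61 ± 0.07), were lower besides PMAIP1.

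Ligands of the EGF receptor and feedback genes of the ERK pathway were lower where they differed most. AREG, amphiregulin, was at 431 and 381 CPM in treated WT and 69.3 and 73.4 CPM in treated R350H cells (5.69-fold, -2.51 ± 0.07, edgeR adjusted p = 4.01e-20), and EREG, epiregulin, at 711 and 682 against 242 and 236 CPM (-1.54 ± 0.07). Untreated, AREG differed by -0.39, and EREG by 0.01, which was not called. ERRFI1, which inhibits the receptor, was at 1619 and 1475 against 336 and 326 CPM (-2.22 ± 0.07), and DUSP5, a phosphatase of nuclear ERK, at 477 and 462 against 111 and 111 CPM (-2.08 ± 0.07). Of the 22 genes of this list 10 were lower and 4 higher (2 higher without R350H replicate 1). Over all genes 21.0% were lower and 19.1% higher. The 4 higher members were DUSP6 (0.77 ± 0.07), EGFR (0.33 ± 0.07), DUSP4 (0.31 ± 0.06) and SPRED1 (0.27 ± 0.07). The calls of EGFR (0.23) and SPRED1 (0.21) were lost without R350H replicate 1, and that of DUSP4 (0.22) without R350H replicate 2. Immediate early genes, which growth factors and stress switch on within minutes, had 22 lower and 5 higher of 36 (3 higher without R350H replicate 2), with a median of -0.36 with doxorubicin and 0.24 without it. The matrix-bound signalling gene CCN1 was at 36.2 and 35.4 CPM in treated WT and 14.4 and 13.4 CPM in treated R350H cells (-1.37 ± 0.09), and at 11.3 and 11.7 CPM in untreated WT and 13.6 and 12.6 CPM in untreated R350H cells, so that the treated WT libraries stood above the other 6. Those called higher were NR4A2 (1.10 ± 0.08), KLF10 (0.34 ± 0.06), BTG2 (0.22 ± 0.07) and the phosphatases DUSP6 and DUSP4 named above, and BTG2 was not called without WT replicate 2 or R350H replicate 2 (0.11 in each). EGR1, a zinc finger factor, did not pass the test with doxorubicin (0.11 ± 0.07) and was higher untreated (1.10). Of 21 NF-kB genes 10 were lower and 0 higher, where 21.0% and 19.1% of all genes were. Among the lower ones were ICAM1, an adhesion molecule, at 8.45 and 8.30 against 1.62 and 1.15 CPM (-2.59 ± 0.20), TNFAIP2 (-0.97 ± 0.07) and NFKB2 (-0.72 ± 0.07). Without WT replicate 1, 1 NF-kB gene was called higher.

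Genes of BMP signalling stood on the other side. BMP ligands signal through SMAD proteins and raise ID genes, which block differentiation factors. Of 16 tested, 11 were higher and 0 lower (median 0.45, untreated 0.27), and 6 were higher without R350H replicate 2. The ligand gene BMP4 was at 58.3 and 56.5 CPM in treated WT and 134 and 131 CPM in treated R350H cells (2.31-fold, 1.21 ± 0.06), against 36.6 and 35.8 CPM in untreated WT and 42.7 and 42.4 CPM in untreated R350H cells. The inhibitory SMAD6 was at 9.19 and 9.81 against 17.6 and 18.7 CPM (0.93 ± 0.11) and did not differ past the test untreated (-0.04). The targets ID2 (1.15 ± 0.07) and ID3 (0.86 ± 0.07) were higher by less than untreated (1.55 and 1.36). WNT targets had 8 higher and 5 lower of 18, where 19.1% and 21.0% of all genes were. AXIN2, a feedback inhibitor of WNT signalling, was at 2.02 and 1.51 CPM in treated WT and 8.98 and 8.55 CPM in treated R350H cells (4.99-fold, 2.32 ± 0.18), while the secreted antagonist DKK1 (-0.99 ± 0.07), the factor SOX9 (-1.28 ± 0.07), the receptor ligase RNF43 (-1.99 ± 0.18), the WNT deacylase NOTUM (-0.57 ± 0.13) and MYC (-0.34 ± 0.06), which lies on chromosome 8, were lower.

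Epithelial genes had 14 lower and 1 higher of 20 (median -0.48, untreated -0.30). Some of them lie in 2 stretches where many genes differed together, as described further on. Without the genes of chromosome 5 before 50 Mb and of chromosome 8 beyond 50 Mb, 11 of 17 were lower and 1 higher (median -0.43). CA2, carbonic anhydrase 2, was at 153 and 138 CPM in treated WT and 24.7 and 26.7 CPM in treated R350H cells (5.66-fold, -2.50 ± 0.08), against 22.2 and 25.4 CPM in untreated WT and 10.9 and 10.9 CPM in untreated R350H cells. CA2 is among the genes of chromosome 8 beyond 50 Mb. The tight junction genes CLDN7 (-1.15 ± 0.07) and CLDN4 (-1.03 ± 0.07) were lower, and the factor KLF5 was the member called higher (0.48 ± 0.06). Among 26 mesenchymal and matrix genes, 6 were higher and 11 lower, where 19.1% and 21.0% of all genes were. The integrin chain ITGB1 was higher (1.02 ± 0.07) and the calcium-binding S100A4 lower (-1.17 ± 0.08). Of 31 genes of hypoxia and glycolysis, 8 were higher and 7 lower, close to the shares over all genes (19.1% and 21.0%), and the 8 fell to 4 without either R350H library or without WT replicate 2. VEGFA, the angiogenic growth factor (-1.07 ± 0.06), and HK2, a hexokinase (-1.15 ± 0.07), were lower, while the glycolytic enzyme genes ALDOC (0.53 ± 0.09) and PKM (0.46 ± 0.07), named after their values were seen, were higher.

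Among interferon-stimulated genes lower members outnumbered higher ones, with a smaller fall at many than in untreated cells. Of 43, 17 were lower and 6 higher with doxorubicin (median -0.30), where 34 were lower and 0 higher untreated (median -0.83). Over all genes 21.0% were lower and 19.1% higher with doxorubicin. The interaction was higher at 18 and lower at 2, where it was higher at 6.46% and lower at 8.18% of all genes. The count of 6 fell to 2 without either R350H library and to 3 without either WT library. OASL, a relative of the oligoadenylate synthetases, was at 24.2 and 21.6 CPM in treated WT and 5.92 and 7.44 CPM in treated R350H cells (-1.78 ± 0.13), and IFIT2, which blocks translation of viral RNA, at 10.2 and 9.09 against 4.17 and 3.997 CPM (-1.24 ± 0.13). SAMD9, an antiviral effector, went the other way, at 26.3 and 26.01 against 44.4 and 44.1 CPM (0.76 ± 0.08), and was lower in untreated R350H cells (64.2 and 73.1 CPM in WT, 54.03 and 63.3 CPM in R350H). In the MHC class I list 7 of 19 were higher and 1 lower, where 19.1% and 21.0% of all genes were. The list median was 0.20, and 0.08 without WT replicate 2. The transactivator NLRC5 (0.73 ± 0.11) and B2M (0.42 ± 0.07), the light chain, led the higher genes, and HLA-F was lower (-0.52 ± 0.13).

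Ribosomal protein genes were lower almost throughout, with about the same median without the drug. Of 79, 74 were lower and 1 higher (median -0.50, untreated -0.48, 73 lower and 1 higher), and the interaction called 0 of them in either direction. The shares over all genes were 21.0% lower and 19.1% higher, with an interaction called at 14.6%. Summed over the 79 genes, the list took 62159 and 58254 CPM in treated WT and 41012 and 42438 CPM in treated R350H cells. The untreated WT libraries lay far apart, at 61645 and 71397 CPM, against 46611 and 46689 CPM in untreated R350H cells. RPS2 was at 2572 and 2494 CPM in treated WT and 1404 and 1466 CPM in treated R350H cells (-0.82 ± 0.07). RPL8 (-1.12 ± 0.07), RPL30 (-1.04 ± 0.08) and RPL7 (-0.69 ± 0.07) lie on the long arm of chromosome 8, where most genes were lower, as described further on, and without the genes of that stretch and of chromosome 5 before 50 Mb, 70 of 74 were lower and 0 higher. The member called higher, RPL37 (0.41 ± 0.07), lies on chromosome 5. Ribosome biogenesis genes had 26 lower and 1 higher of 38 (untreated 26 and 1), among them FBL, the methyltransferase of ribosomal RNA (-0.72 ± 0.07), and RRP12 (-0.69 ± 0.07). The call of the higher gene, UBTF (0.26 ± 0.06), a factor of ribosomal RNA transcription, was lost without R350H replicate 2 (0.16).

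Several of the largest differences were present in untreated cells as well. Among genes with a symbol, a mean of at least 5 CPM over the treated libraries and no overlap, FSTL4, a follistatin-like gene, was at 0.566 and 0.459 CPM in treated WT and 20.3 and 20.6 CPM in treated R350H cells (39.7-fold higher, 5.31 ± 0.18), and at 0.18 and 0.22 against 9.07 and 9.22 CPM untreated. TIMP3, an inhibitor of matrix proteases, was at 1.52 and 1.87 against 19.7 and 17.4 CPM (3.45 ± 0.14), and GCHFR, which regulates tetrahydrobiopterin synthesis, at 0.778 and 0.426 against 13.5 and 11.6 CPM (4.39 ± 0.21). LONRF2 (3.34 ± 0.12), the folate enzyme ALDH1L1 (3.02 ± 0.07), the Notch ligand DNER (2.71 ± 0.12) and PAPSS2, which makes the sulfate donor (2.65 ± 0.07), were also among the 14 largest rises. SNED1, an extracellular matrix gene, was at 12.8 and 14.9 CPM in treated WT and 81.04 and 81.1 CPM in treated R350H cells (2.55 ± 0.09), against 14.1 and 13.98 CPM in untreated WT and 41.2 and 33.7 CPM in untreated R350H cells, so its difference was larger with the drug (interaction 1.13 ± 0.13).

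Among the lower genes, PDE4B, a phosphodiesterase of cyclic AMP, was at 42.7 and 40.4 CPM in treated WT and 0.276 and 0.403 CPM in treated R350H cells (121-fold, -6.92 ± 0.17). ABCA1, which exports cholesterol, was at 28.8 and 26.9 against 0.582 and 0.248 CPM (-6.05 ± 0.20). Both were about as low in untreated R350H cells (-7.01 and -6.29). GALNT5, which starts O-glycans, was at 155 and 155 CPM in treated WT and 12.3 and 12.7 CPM in treated R350H cells (-3.64 ± 0.08), where untreated levels were 23.1 and 20.4 CPM in WT and 3.72 and 4.24 CPM in R350H, so the treated WT libraries stood far above the other 6. The keratin gene KRT80 (-3.47 ± 0.09), the guidance factor SEMA3A (-4.19 ± 0.15) and the homeobox gene MKX (-4.22 ± 0.14) were also among the 14 largest falls.

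LURAP1L was the gene whose genotype difference depended most on the drug by the interaction term among genes of at least 5 CPM. It was at 18.4 and 18.5 CPM in treated WT and 1.01 and 0.899 CPM in treated R350H cells (19.2-fold, -4.26 ± 0.14), against 38.3 and 37.5 CPM in untreated WT and 20.6 and 20.2 CPM in untreated R350H cells. The groups did not overlap in either condition. TSC22D3, a leucine zipper gene that glucocorticoids induce, was at 33.9 and 34.8 against 4.78 and 4.37 CPM with the drug (-2.91 ± 0.10) and differed by -0.31 without it. In the other direction, GATA2-AS1, a noncoding RNA, was at 3.57 and 4.72 CPM in treated WT and 16.5 and 14.6 CPM in treated R350H cells (1.90 ± 0.13), against 10.5 and 9.88 CPM in untreated WT and 15.9 and 16.9 CPM in untreated R350H cells.

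Zinc finger genes made up much of what was absent in R350H cells. KRAB zinc finger proteins bind DNA and recruit repressors, and many of their genes lie in clusters on chromosome 19. Of 29 tested genes with 0 counts in both treated R350H libraries, 7 had at least 1 CPM in treated WT cells, and 4 of these were zinc finger genes of chromosome 19. No gene with at least 1 CPM in treated R350H cells was at 0 in both treated WT libraries (0 genes). ZNF84, on chromosome 12, was counted at 15.5 and 17.8 CPM in treated WT cells and was at least 361-fold lower in R350H, with the floor set at 3 counts over the group. ZNF91 (5.30 and 6.33 CPM in treated WT) was at least 126-fold lower, ZNF44 (3.39 and 4.43 CPM) at least 85.0-fold and ZNF850 (2.09 and 2.46 CPM) at least 49.3-fold. The untreated R350H libraries also held 0 counts of ZNF84, ZNF91 and ZNF850. ZNF211 was at 12.98 and 11.4 CPM in treated WT cells and at 0.184 and 0.155 CPM, or 6 and 5 counts, in R350H cells. Over the 146 zinc finger genes of chromosome 19 tested, 55 were lower, 20 of them at least 2-fold, and 10 higher, with a median of -0.13 against -0.14 untreated. Over all genes 21.0% were lower, 3.96% at least 2-fold, and 19.1% higher. The 10 fell to 4 without R350H replicate 1 and to 5 without R350H replicate 2 or WT replicate 1. These genes resemble each other, so reads of near-identical stretches may have been lost or split.

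Of 28 BAF subunit genes tested, DPF2 included, 8 were lower and 2 higher, where 21.0% and 19.1% of all genes were, against 14 lower and 2 higher untreated. SMARCC1, a core scaffold, was at 365 and 336 CPM in treated WT and 235 and 242 CPM in treated R350H cells (-0.56 ± 0.07), and BCL7A at 40.8 and 37.6 against 23.5 and 22.5 CPM (-0.77 ± 0.09). The ATPase SMARCA4 (-0.26 ± 0.06), SMARCB1 (-0.30 ± 0.08) and SMARCC2 (-0.25 ± 0.06) were lower by under 1.5-fold. BRD9, which marks the non-canonical complex, was higher (0.70 ± 0.07) and lies on the short arm of chromosome 5. The other call upward, SMARCD3 (0.22 ± 0.08), was lost when any of the 4 treated libraries was left out (0.14 to 0.22), with RLE size factors, without a filter and with DESeq2, and the list median of -0.04 had the opposite sign under upper-quartile scaling. DPF1 (-0.16 ± 0.14) and DPF3 (0.63 ± 0.26), the relatives of DPF2, did not pass the test, though DPF3 did under upper-quartile scaling (0.67) and without WT replicate 1 (0.84). Among 19 genes that write, erase or handle H3K56ac, 6 were lower and 4 higher (1 higher without either R350H library and 2 without WT replicate 1), with the histone chaperone genes CHAF1A (-0.68 ± 0.08) and CHAF1B (-0.44 ± 0.10) lower. Over all genes 21.0% were lower and 19.1% higher, and the median of these 19 was -0.07. The 4 higher members were CUL4B (0.42 ± 0.07), HIRA (0.33 ± 0.12), CUL4A (0.22 ± 0.07) and HDAC1 (0.17 ± 0.07). Without R350H replicate 1, HIRA (0.27), CUL4A (0.19) and HDAC1 (0.15) lost their calls, as they did without R350H replicate 2 (0.30, 0.17 and 0.10). HIRA (0.25) and CUL4A (0.12) also did so without WT replicate 1, and HDAC1 (0.08) without WT replicate 2. With DESeq2 the calls of HIRA (0.31) and HDAC1 (0.14) were lost, and that of HDAC1 also with RLE size factors (0.14), with TMM without mitochondrially encoded genes (0.15) and without a filter (0.16).

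The position of genes moved with the comparison in 2 stretches, whose limits were set after the values were seen. Of 140 genes tested on chromosome 5 before 50 Mb, 101 were higher (72.1%) and 5 lower, with a median of 0.85, or 1.81-fold, against 0.84 untreated. Of 386 genes on chromosome 8 beyond 50 Mb, 211 were lower (54.7%) and 21 higher, with a median of -0.42 against -0.40 untreated. Genes beyond 50 Mb on chromosome 5 had a median of 0.07 and those before 50 Mb on chromosome 8 of 0.05. In the rest of the autosomes and X 19.03% of 17309 genes were higher and 20.4% lower, with a median of 0.02. Copy number was not measured here, and its part in these values was not tested. None of the 30 stress genes and 1 of the 46 G1/S genes lies in these stretches.

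**Figure D2:**
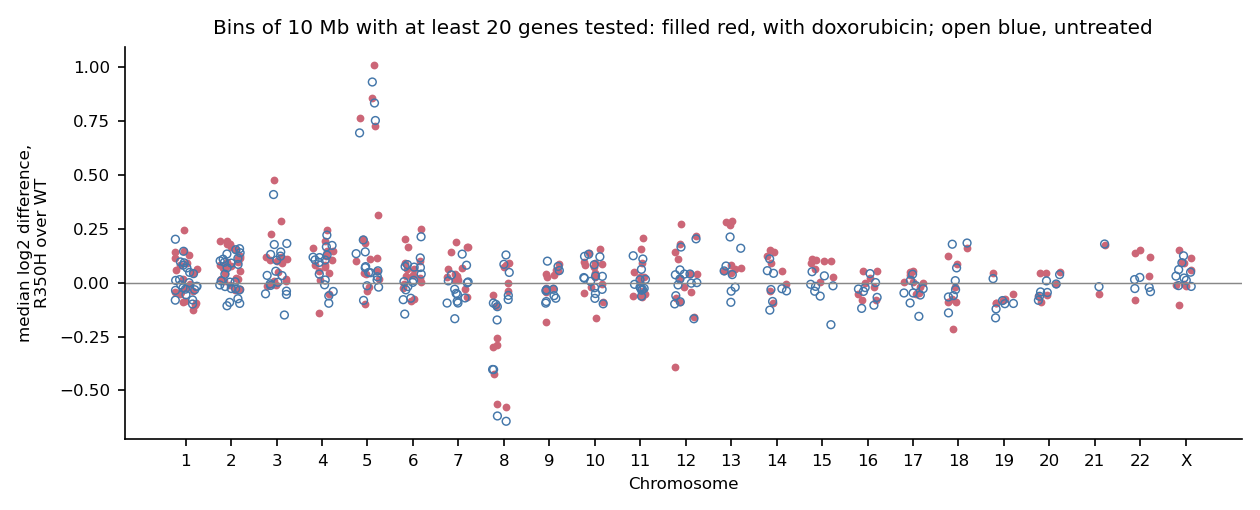
Median log2 difference of R350H over WT (vertical axis) in bins of 10 Mb with at least 20 tested genes, grouped by chromosome (horizontal axis, points spread sideways for legibility); filled red points are cells with doxorubicin and open blue points untreated cells. With doxorubicin the bins of chromosome 5 before 50 Mb lie at 0.73 to 1.01 and those of chromosome 8 beyond 50 Mb at -0.06 to -0.58, against 0.69 to 0.93 and -0.09 to -0.64 in untreated cells, while bins of the other chromosomes reach 0.48 on chromosome 3 and -0.39 on chromosome 12.

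Set against the untreated difference gene by gene, the lists separated into those that kept their place and those that moved. Across all 17868 genes, which are not independent replicates, the treated and untreated differences correlated at r = 0.638 and rho = 0.525. Ribosomal proteins lay on the line of equal differences. Stress genes lay below it, from a median of 0.02 to -1.36, G1/S genes from -0.16 to -0.64 and p53 targets from 0.32 to -0.06. Interferon-stimulated genes lay above it, from -0.83 to -0.30.

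**Figure D3:**
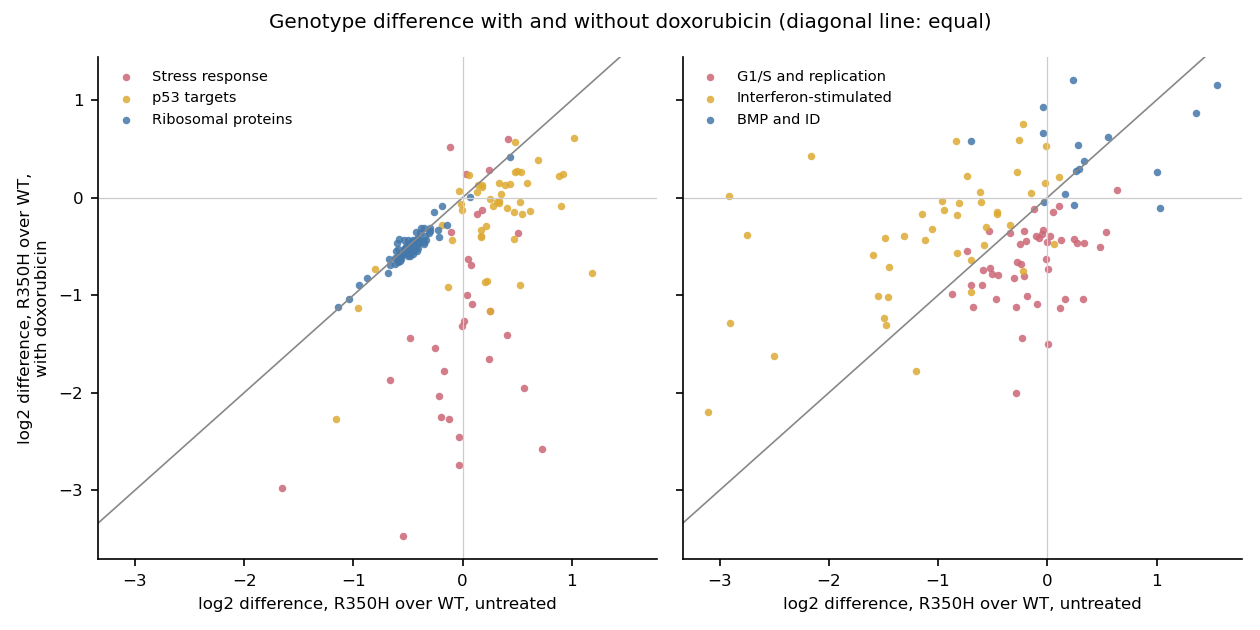
Log2 difference of R350H over WT with doxorubicin (vertical axis) against the same difference in untreated cells (horizontal axis) for each tested gene of 6 lists; the diagonal marks equal differences. Ribosomal protein genes follow the diagonal near -0.5, stress, p53 and G1/S genes fall below it, and interferon-stimulated genes rise above it.

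The authors' deposited table of TPM values covers 202 genes. The way they were selected is not stated, and since the study may have picked them on these samples they are not independent evidence of a direction. In the test on counts, 175 of them were lower in treated R350H cells and 6 higher, with a median of -1.18. On the log2(TPM + 1) scale, where folds of low genes come out too small, limma found that 153 were lower and 10 higher with a median of -0.56. The same 153 genes were lower in both tests and 4 were higher in both.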

How the data were processed

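RNA of 8 HCT116 samples was sequenced with a stranded poly(A) kit. The authors deposited 1 count per gene and library. Per the file headers, read pairs were counted with featureCounts 2.0.1 on GENCODE release 34, requiring a mapping quality of 10, with strand setting 1 in untreated WT replicate 1 and untreated R350H replicate 2 and setting 2 elsewhere, the 4 treated libraries included. Per the submitters' processing notes, reads went through FastQC 0.11.4, Trim Galore 0.6.10 and STAR 2.7.5a on hg38, and DESeq2 1.36.0 and featureCounts 1.5.0-p1 are named there too. A table of TPM values for 202 genes was deposited as well. Its making is not given in the sources that were used.

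Counts were tested with edgeR 4.0.16 (R 4.3.3), using filterByExpr, TMM and a robust quasi-likelihood fit with all 8 libraries and a mean for each group, which left 4 residual degrees of freedom (biological coefficient of variation 5.35%). The 17868 genes tested hold 99.93% of the counts, and the libraries held 28111673 to 33727374. Calls are Benjamini-Hochberg adjusted p under 0.05 over all genes tested. TPM values were tested with limma 3.58.1 on log2(TPM + 1). Python 3.11.15 served the remaining steps. Fitted log2 differences carry their standard error, and a fold is that difference taken off the log scale. Each group has 2 libraries, which limits the precision.

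Alternatives were other scalings, filters, tests, sets of libraries and a replicate block. Replicate numbers did not pair the libraries. The text names the 14 largest rises and falls with a symbol and at least 5 CPM over the treated libraries, up to 4 genes of each list, the 6 largest interactions each way and any gene singled out after its values were seen. Some genes that this rule names are not reported here. The comparison, its members and the gene lists were chosen with earlier results of these data known.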

Additional observations from a re-analysis of the deposited data

Results flagged for a closer look

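The genotype difference of 102 of the 171 genes named in the text was not the same with doxorubicin as without it, by the interaction term of the edgeR fit (largest adjusted p = 0.0465). Over all genes tested the share was 14.6%, and many of the named genes were chosen for a large difference or a large interaction, so the count describes the choice of genes. The values are the log2 difference of R350H over WT with doxorubicin minus that in untreated cells, with 2 libraries in each of the 4 groups. At 78 genes the value was below 0 and at 24 above 0.

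Among stress, amino acid and synthetase genes the shifts below 0 were those of DDIT3 (-3.31), CHAC1 (-2.93), ATF3 (-2.52), TRIB3 (-2.14), STC2 (-2.04), PPP1R15A (-1.82), CEBPG (-1.30), CEBPB (-1.29), ATF4 (-1.29), DDIT4 (-1.21), SLC7A11 (-2.71), PCK2 (-2.64), ASNS (-2.42), SLC1A4 (-2.09), PSAT1 (-1.90), SLC7A5 (-1.81), SLC6A9 (-1.62), SLC3A2 (-1.61), SLC7A1 (-1.497), MTHFD2 (-1.17), SLC1A5 (-1.11), PHGDH (-0.96), AARS1 (-1.60), GARS1 (-1.23), CARS1 (-1.19) and YARS1 (-0.98). Among genes of replication, repair and chromatin they were those of CCNE2 (-1.71), DTL (-1.51), RRM2 (-1.37), CDC6 (-1.25), E2F8 (-1.21), E2F1 (-1.20), EXO1 (-1.14), BRCA1 (-1.08), FANCI (-0.86), RAD54L (-0.64), UHRF1 (-0.57), PCNA (-0.56), CHAF1A (-0.45), CDT1 (-0.44), FANCD2 (-0.31), H2AX (-0.54) and H2AZ1 (-0.37). Among p53 targets and genes of the BCL2 family they were those of PLK2 (-1.96), SESN2 (-1.42), GADD45A (-1.41), PMAIP1 (-1.07), CDKN1A (-0.98), BTG2 (-0.65) and BCL2L1 (-0.51). Among genes of growth factor, NF-kB, WNT and BMP signalling they were those of AREG (-2.12), DUSP5 (-1.96), ERRFI1 (-1.67), CCN1 (-1.55), EREG (-1.55), EGR1 (-0.99), ICAM1 (-2.03), DKK1 (-0.47), ID3 (-0.50) and ID2 (-0.40). The remaining shifts below 0 were those of LURAP1L (-3.37), TSC22D3 (-2.60), MKX (-1.89), ZNF211 (-1.39), CA2 (-1.38), GALNT5 (-1.18), HK2 (-1.06), TIMP3 (-0.89), KRT80 (-0.81), S100A4 (-0.76), ACTA2 (-0.74), VEGFA (-0.66), OASL (-0.58), KLF5 (-0.54), CLDN7 (-0.51), PKM (-0.35) and the mitosis genes KIF2C (-0.71) and AURKB (-0.59). EGR1, CDKN1A and PCNA passed the interaction test without a called genotype difference in treated cells, as FARSA did with a shift above 0. For TIMP3, ID2, ID3, KLF5, PKM and BTG2 a shift below 0 means a smaller rise with doxorubicin than without it.

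The shifts above 0 were those of AXIN2 (1.62), SEMA3A (1.34), GATA2-AS1 (1.22), SNED1 (1.13), SAMD9 (0.98), BMP4 (0.98), SMAD6 (0.97), CCNB1 (0.82), LONRF2 (0.79), PLK1 (0.75), HRK (0.71), NR4A2 (0.64), SDF2L1 (0.63), NLRC5 (0.58), TNFAIP2 (0.51), KIF20A (0.50), CUL4A (0.47), SMARCD3 (0.44), CENPE (0.43), UBTF (0.42), SMARCC2 (0.38), FARSA (0.33), ATM (0.33) and SMARCA4 (0.28). For SEMA3A, TNFAIP2, HRK, SMARCC2 and SMARCA4 this means a smaller fall with doxorubicin than without it.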

How the results depend on the processing

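Among 2388 values of the 171 named genes under 14 alternatives, 2271 kept their side of the threshold, 105 lost and 12 gained a call. With a call in either setting, 0 changed sign. A change of sign without a call was counted among the 2271. Against a difference of 1.5-fold (edgeR's glmTreat) 492 genes were higher and 736 lower with doxorubicin. Leaving out each treated library in turn gave 1987 to 2804 higher and 3150 to 4184 lower genes, with the lowest count of higher genes without R350H replicate 1. DESeq2 1.42.0 called 2405 higher and 3555 lower. Among the other alternatives the counts ran from 2898 to 4028 higher and 2931 to 4073 lower, within 1.5 times of the values in the report. Called genes split 47.7% higher, and under upper-quartile scaling 54.7%, where higher genes (4028) outnumbered lower ones (3334). The interaction called 619 genes higher with DESeq2, 720 without the 2 untreated libraries of the other strand setting and 21 against 1.5-fold, and 206 genes lower against 1.5-fold. In each case the cause was not tested, except that glmTreat asks for a larger difference by construction. The replicate block gave 3348 higher and 3686 lower genes, and 1090 and 1405 for the interaction, and among named genes the treated calls of ENO2 (-0.18) and HDAC1 (0.17) were lost under it. Same-numbered libraries did not deviate together (r = -0.029 treated and -0.036 untreated across genes). On the TPM table the counts ran from 8 to 10 higher and 125 to 154 lower. Of 503 list medians under alternatives, 395 moved by less than the replicate spread and 108 by more. Setting aside chromosome 5 before 50 Mb and chromosome 8 beyond 50 Mb, an alternative chosen after seeing the data, left 3299 higher and 3535 lower genes. Depth leaves genes of a few CPM with wide errors, and 2 libraries a group cannot separate culture from genotype.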
